A study of Mus musculus with 12 samples.

Results

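Serpins and cystatins are 2 families of protease inhibitors, and 10 of their genes are described here in bone marrow macrophages and monocytes. The genes were chosen by name from the 56953 genes of the deposited tables, with earlier results of these data known. They are the serpins Serpinb6a, Serpinb1a, Serpinb2, Serpinb8, Serpinb9, Serpinb10 and Serping1, and the cystatins Cst3, Cst7 and Cstb. Serpinb6a and Cst7 were picked for their patterns between the groups of these same libraries, so their values are given as a description with no test. The other 8 genes were tested across all groups. The tables name 77 serpins and cystatins in all.

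The study asked how macrophages of embryonic origin in the bone marrow differ from those made by adult hematopoietic stem cells. Cells were sorted from 8-week-old female C57BL/6J mice with the genotype Rank cre/+;R26.eYFP fl/+, which all 4 groups share. In these mice the Cre recombinase is driven by the Rank locus and switches on the fluorescent protein eYFP, so an eYFP- macrophage is called adult-derived because it lacks the label. Embryonic macrophages (eYFP+) and adult-derived ones (eYFP-), both gated as F4/80hi cells, were sequenced beside Ly6Clo monocytes and Ly6Chi monocytes, with 3 libraries in each group. The labels do not say whether libraries come from separate mice, so p-values may measure only technical spread.

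Serpins are suicide inhibitors: the protease cuts a reactive loop, and the serpin then changes shape and holds the enzyme in a covalent complex. Most inhibit serine proteases, and clade B serpins stay inside the cell, where they guard leukocytes against their own granule proteases. Cystatins block papain-like cysteine proteases, the cathepsins of the lysosome, by plugging the active site reversibly. Myeloid cells make both the proteases and the inhibitors in large amounts.

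Total counts ran from 26390927 to 48618187 per library. Macrophage markers separated the macrophage from the monocyte libraries, which says nothing of the eYFP or Ly6C labels: the summed normalized counts of 8 macrophage markers lay between 1210409 and 1713300.3 in the 6 macrophage libraries and between 22790.2 and 68583 in the 6 monocyte libraries. Ly6Clo replicate 2 stood apart from its group, with correlations of 0.792 and 0.795 with the other two over variance-stabilised values. To a lesser degree eYFP+ replicate 1 did so too, at 0.917 and 0.914. In bulk RNA, fewer cells that express a gene and less RNA per cell cannot be told apart.

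Levels per transcript length, in deposited TPM (counts scaled by gene length and library sum), spanned from a mean of 0.00728 (Serpinb2 in eYFP- macrophages) to 10722 (Cst3 in Ly6Clo monocytes). Cst3, which encodes the secreted inhibitor cystatin C, was the most abundant of the 10 genes in each group, at 3884 ± 189 TPM in eYFP+ macrophages and 10722 ± 307 TPM in Ly6Clo monocytes (mean ± SD, n = 3, here and below). Serpinb6a and Cstb followed in macrophages, with 858 ± 97 and 574 ± 150.3 TPM in the eYFP+ group. In Ly6Chi monocytes the order differed, and Cstb (365 ± 15.6 TPM), Serpinb1a (92 ± 15.4 TPM) and Serpinb10 (74.1 ± 11.6 TPM) came after Cst3. Serpinb8, Serpinb9, Serping1 and Cst7 had mean levels of at most 19.7 TPM in the 4 groups, and Serpinb2 of at most 1.44 TPM.

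**Figure D1:**
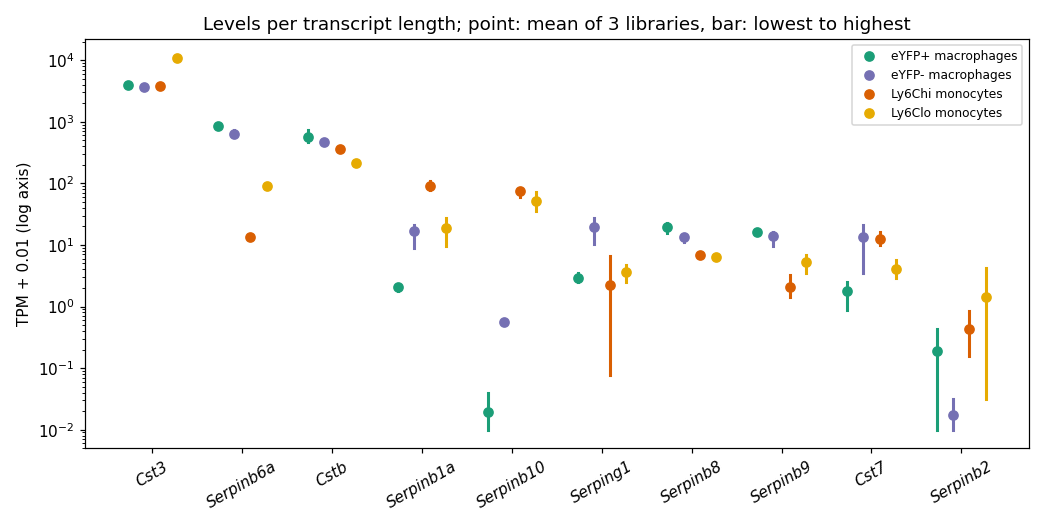
Levels of the 10 genes in TPM + 0.01 on a log axis, with the mean of 3 libraries as a point and the lowest to highest library as a bar, coloured by group. Cst3 is the highest gene in each group, and Serpinb10 spans from 0.00965 TPM in eYFP+ macrophages to 74.1 TPM in Ly6Chi monocytes.

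Serpinb6a (ENSMUSG00000060147), an intracellular inhibitor of cathepsin G, showed 4 separate levels. Its normalized counts were 27357, 30098 and 25543 in eYFP+ macrophages and 19590.1, 21180.2 and 19690.2 in eYFP- macrophages. In Ly6Clo monocytes they were 3167, 2981 and 3281, and in Ly6Chi monocytes 426, 431 and 508. No pair of groups overlapped. The step from eYFP+ to eYFP- macrophages was the smallest, a ratio of means of 1.37, against 6.41 from eYFP- macrophages to Ly6Clo monocytes and 6.91 from Ly6Clo to Ly6Chi monocytes. The fitted log2 fold changes were 0.46 ± 0.18 (SE, here and below) for eYFP+ minus eYFP- macrophages, -2.79 ± 0.19 for Ly6Chi minus Ly6Clo monocytes and 4.30 ± 0.13 for macrophages minus monocytes. Exons of Serpinb6a overlap 3 genes on the opposite strand (Nqo2, Ripk1 and 1110046J04Rik), and close copies such as Serpinb6b share its sequence, so part of its reads may have gone uncounted.

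The genes whose pattern came closest to Serpinb6a over the 12 libraries were Nr1h3, Blnk and Cd82. Their centred variance-stabilised values differed from those of Serpinb6a by 0.23, 0.27 and 0.34 on average, among 11052 genes compared. Nr1h3, a nuclear receptor for oxysterols, averaged 13753 normalized counts in eYFP+ macrophages, 11915 in eYFP- macrophages, 1416 in Ly6Clo and 239 in Ly6Chi monocytes.

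**Figure D2:**
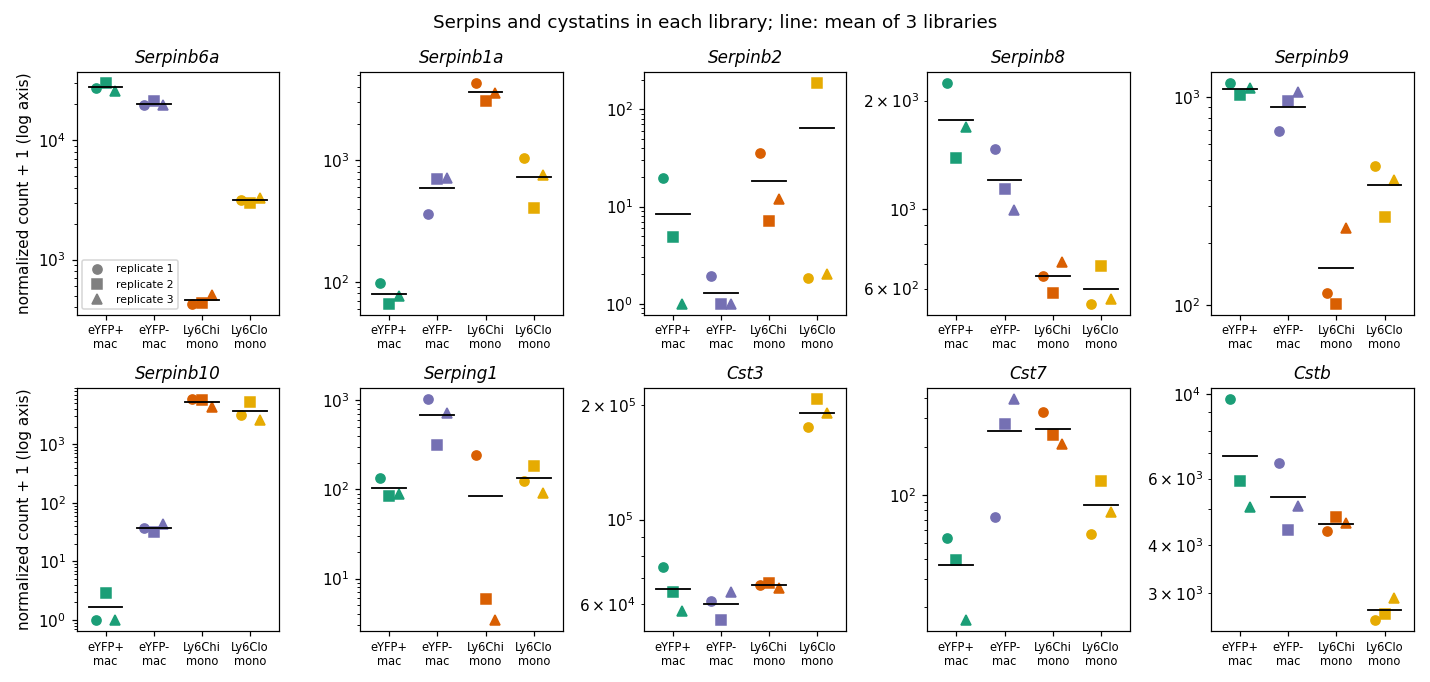
Normalized count + 1 of each gene in the 12 libraries, on a log axis that differs between panels, with a line at the mean of each group. Serpinb6a falls into 4 separate levels, Serpinb10 is near 0 in eYFP+ macrophages, and the high mean of Serpinb2 in Ly6Clo monocytes comes from replicate 2.

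In the comparison of eYFP+ with eYFP- macrophages, 2 of the 8 tested genes differed, both lower in eYFP+ macrophages: Serpinb1a and Serpinb10. DESeq2 called 2.04% of all genes in this comparison, 33 higher and 406 lower in eYFP+ cells. The median log2 fold change of the 7 genes with an adjusted p was 0.13 (0.21 over all 8 with Cook's limit on single libraries removed), and of all genes tested 0.05. With a block for the replicate number the same 2 genes were called by DESeq2, while the calls among all genes rose from 439 to 1155, of which 471 were higher and 684 lower in eYFP+ cells. Without eYFP- replicate 2 the split was 182 higher and 347 lower, and without eYFP- replicate 3 the total was 227.

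Serpinb1a (ENSMUSG00000044734) encodes an inhibitor of the neutrophil granule proteases elastase, cathepsin G and proteinase 3. Its normalized counts were 95.7, 64.8 and 75.5 in eYFP+ macrophages and 357, 704 and 716 in eYFP- macrophages. Every eYFP- library lay above every eYFP+ library, and the log2 fold change was -2.91 ± 0.42 (DESeq2 adjusted p = 7.90e-09, edgeR adjusted p = 0.0143).

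Serpinb10 (ENSMUSG00000092572), or bomapin, is a serpin restricted to hematopoietic cells. It had 35.6, 31.2 and 41.8 normalized counts in eYFP- macrophages, whereas the eYFP+ libraries held 0, 1.91 and 0. Only 2 reads of eYFP+ macrophages fell on it in all, against 131 in eYFP- macrophages. Scaled by library size, that is a ratio of 60.8, with a 95% interval from counting alone of 16.5 to 507. The DESeq2 adjusted p was 2.13e-05 and that of edgeR 0.00501. Macrophages of either origin were far below monocytes, and 36.2 normalized counts in eYFP- macrophages amount to 0.547 TPM.

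Cst7 (ENSMUSG00000068129) encodes cystatin F, which is directed to lysosomes and acts there on cathepsin C. In eYFP+ macrophages it had 52.5, 38.1 and 15.5 normalized counts, and in eYFP- macrophages 72.1, 277 and 395. The groups did not overlap, but replicate 1 of the eYFP- group lay near the eYFP+ libraries. In Ly6Chi monocytes the counts were 329, 234 and 208, and in Ly6Clo monocytes 56, 122 and 77.2. Libraries of eYFP- macrophages overlapped both monocyte groups, and the eYFP+ libraries were below all others. The log2 fold changes were -2.82 ± 0.62 for eYFP+ minus eYFP- macrophages, 1.60 ± 0.62 for Ly6Chi minus Ly6Clo monocytes and -0.66 ± 0.44 for macrophages minus monocytes. Nearest to it in pattern were Nkg7, Aurkb and Kif15, at mean differences of 0.43, 0.48 and 0.49 over the 12 libraries. Nkg7 encodes a granule membrane protein of cytotoxic cells, and Aurkb and Kif15 act in mitosis.

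Markers of other cells moved with these 3 genes. Of 12 neutrophil markers, 5 were lower in eYFP+ than in eYFP- macrophages (Camp, Ctsg, Mpo, Ngp and Prtn3) and none higher, and their summed normalized counts were 1565 to 3257 in eYFP+ libraries against 9768, 50188 and 33831 in the eYFP- libraries. Replicate 1 of the eYFP- group, the lowest of these sums, was also the lowest eYFP- library for Serpinb1a and Cst7, but not for Serpinb10. Among 6 stem and progenitor markers 3 were lower in eYFP+ cells (Cd34, Flt3 and Kit), with sums of 400.4 to 769 against 3244 to 6367. Among 12 markers of T and NK cells 3 were lower (Ccl5, Klrd1 and Nkg7), with sums of 664 to 909.6 against 2257 to 3926. Of these 11 markers, edgeR called Prtn3, Cd34 and Nkg7 (adjusted p = 0.0104, 0.0315 and 0.00201) and not the others (0.0528 to 0.334). In eYFP+ macrophages Elane was at 0 in 1 library and Ly6g in 2. The part of such cells in the differences of Serpinb1a, Serpinb10 and Cst7 was not tested.

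**Figure D3:**
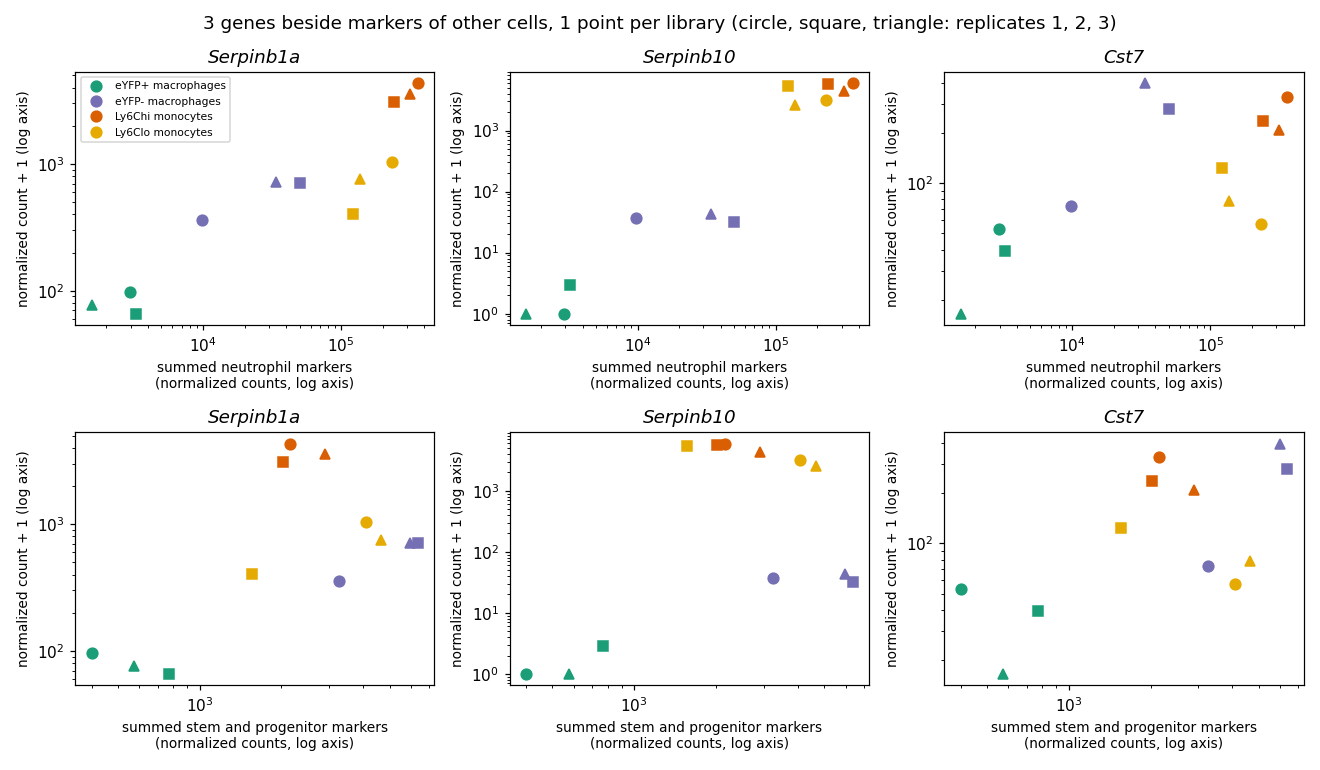
Normalized count + 1 of Serpinb1a, Serpinb10 and Cst7 against the summed normalized counts of neutrophil markers (top) and of stem and progenitor markers (bottom), on log axes, with 1 point per library. The 3 eYFP+ macrophage libraries lie lowest on both marker sums, and the eYFP- library with the fewest neutrophil marker counts (9768) is also its group's lowest for Serpinb1a and Cst7.

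Of the other 6 tested genes, 5 did not pass the test between the macrophage groups and Serpinb2 had no adjusted p. Serping1 (ENSMUSG00000023224), the C1 inhibitor of the complement and contact systems, had 134, 83.9 and 88.8 normalized counts in eYFP+ macrophages and 1029, 315 and 716 in eYFP- macrophages. These libraries did not overlap, yet with the dispersion shared by all 12 libraries the log2 fold change of -2.75 ± 1.05 had an adjusted p of 0.228 with DESeq2. A fit on the 6 macrophage libraries alone gave an adjusted p of 7.73e-07. In Ly6Chi monocytes, which enter the first fit only, Serping1 had 239.7, 4.86 and 2.43 normalized counts.

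Serpinb8 (log2 fold change 0.56 ± 0.28, DESeq2 adjusted p = 0.552), Serpinb9 (0.29 ± 0.38, adjusted p = 1), Cst3 (0.13 ± 0.20, adjusted p = 1) and Cstb (0.36 ± 0.31, adjusted p = 0.945) had overlapping libraries in eYFP+ and eYFP- macrophages. Serpinb2, also known as plasminogen activator inhibitor 2, had 18.5, 3.81 and 0 normalized counts in eYFP+ and 0.913, 0 and 0 in eYFP- macrophages. DESeq2 gave it no adjusted p, because a single library weighed too heavily by Cook's distance, and 0.411 with that limit removed.

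**Figure D4:**
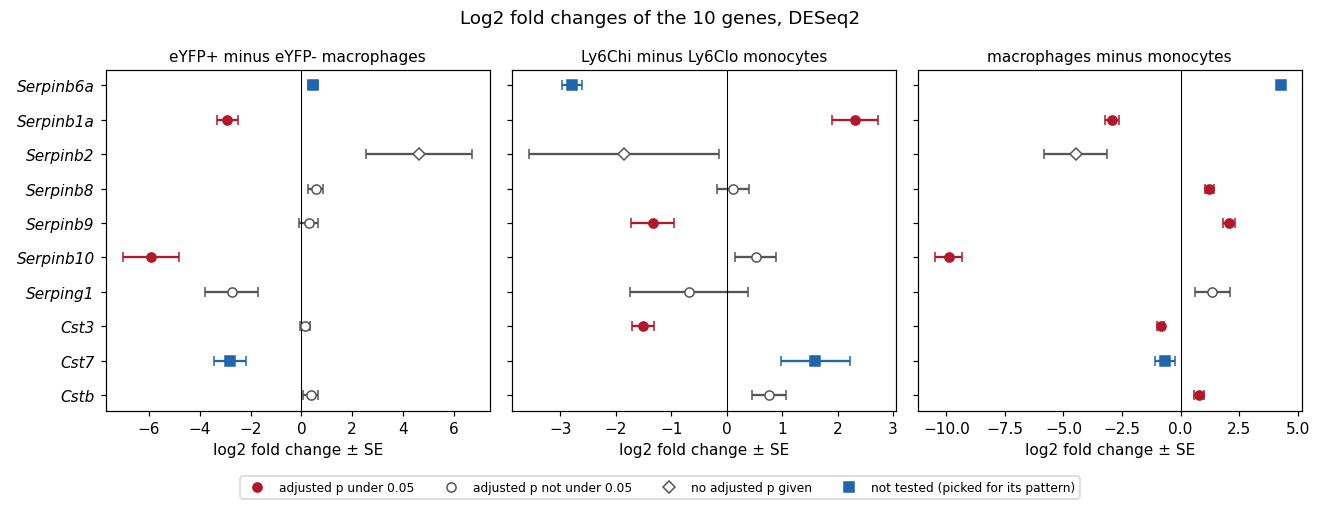
Log2 fold changes ± SE of the 10 genes in the 3 comparisons, from 1 DESeq2 fit of the 12 libraries, with a separate horizontal axis in each panel. Filled circles passed an adjusted p of 0.05, open circles did not, the diamond marks Serpinb2 without an adjusted p, and squares mark Serpinb6a and Cst7, which were not tested.

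Between monocytes, 3 of the 8 genes differed, against 8.62% of all genes: Serpinb1a was higher in Ly6Chi cells, and Serpinb9 and Cst3 were higher in Ly6Clo cells. The median log2 fold change was 0.12 over the 7 genes with an adjusted p, which leave out Serpinb2, and 0.02 over all genes tested. With Serpinb2 included, by removing Cook's limit, it was -0.28. Serpinb1a had 4317, 3092 and 3569 normalized counts in Ly6Chi monocytes and 1039.8, 402 and 755 in Ly6Clo monocytes. The lowest Ly6Chi library was above the highest Ly6Clo library, and the log2 fold change was 2.32 ± 0.41 (DESeq2 adjusted p = 1.65e-06). Beside it, the summed neutrophil markers were 240060.1 to 359864 in Ly6Chi and 122532 to 232243 in Ly6Clo libraries, and their part was not tested.

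Cst3 (ENSMUSG00000027447) had 67199, 68198 and 65963 normalized counts in Ly6Chi monocytes and 175164, 207649 and 190613 in Ly6Clo monocytes. The ratio of means was 2.85, with a log2 fold change of -1.51 ± 0.20 (DESeq2 adjusted p = 3.57e-12). Macrophages had values near those of Ly6Chi monocytes: 74959, 64607 and 57323 normalized counts in eYFP+ and 61032, 54398 and 64286 in eYFP- libraries. The eYFP+ libraries overlapped the Ly6Chi libraries (log2 fold change -0.03 ± 0.20, DESeq2 adjusted p = 0.945), and the eYFP- libraries lay just below them (-0.16 ± 0.20, adjusted p = 0.609).

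Serpinb9 (ENSMUSG00000045827), the inhibitor of granzyme B, had 113, 101 and 234 normalized counts in Ly6Chi and 466, 265 and 399 in Ly6Clo monocytes. The libraries did not overlap, and the log2 fold change was -1.34 ± 0.39 (DESeq2 adjusted p = 0.0122). This call was lost with edgeR (adjusted p = 0.0733), in the fit on monocyte libraries alone (0.125), with limma on log2(TPM + 1) with or without its filter (0.0640 and 0.136) and on log2(TPM + 0.1) (0.0548), and without Ly6Clo replicate 1, Ly6Chi replicate 1 or Ly6Chi replicate 2 (adjusted p = 0.0720, 0.108 and 0.108 in DESeq2). Markers of other cells were also higher in Ly6Clo monocytes, where Cst3 and Serpinb9 were higher. Of 6 dendritic cell markers 4 were, with sums of 20777 to 92034 against 4308 to 5241 normalized counts in Ly6Chi libraries. Of 8 macrophage markers 6 were, with sums of 39357 to 68583 against 22790.2 to 29529. Of 12 markers of T and NK cells 3 were higher and 1 lower in Ly6Clo cells, with sums of 3576 to 4496 against 887 to 1351, and Cd8a and Trac were at 0 in all 3 Ly6Clo libraries. The part of such cells in Cst3 and Serpinb9 was not tested.

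Serpinb10 had 5917, 5683 and 4384 normalized counts in Ly6Chi monocytes and 3163, 5394 and 2586 in Ly6Clo monocytes, and only replicate 2 of the latter reached into the Ly6Chi range. The log2 fold change was 0.52 ± 0.37 (DESeq2 adjusted p = 0.457), and 0.89 (adjusted p = 0.0202) without that library. Serpinb2 was high in the same library, at 186 normalized counts, while the other two Ly6Clo libraries had 0.849 and 1.02 and the Ly6Chi libraries 35, 6.07 and 10.9. The genes Serpinb2 and Serpinb10 overlap on the same strand. In Ly6Clo replicate 2 the summed dendritic cell markers were 92034 normalized counts, against 20777 and 21291 in the other two, and the part of such cells in either gene was not tested.

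Serping1 had 123, 182 and 90.4 normalized counts in Ly6Clo monocytes, close to the single high Ly6Chi library. Its log2 fold change was -0.68 ± 1.06 (DESeq2 adjusted p = 0.780), and without Ly6Chi replicate 1 it was -5.18 (adjusted p = 4.38e-08). Serpine2, a serpin not among the 10 genes, was also highest in that library of its group, at 319 normalized counts against 107 and 115. Cstb (log2 fold change 0.76 ± 0.31, DESeq2 adjusted p = 0.107) and Serpinb8 (0.12 ± 0.29, adjusted p = 0.877) did not pass the test between monocytes, although the Cstb libraries did not overlap. Cstb passed with limma on log2(TPM + 1) and log2(TPM + 0.1) (adjusted p = 0.0355 and 0.0369), and not on log2(TPM + 1) without the filter (0.0817).

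Between macrophages and monocytes, 6 of the 8 genes differed, where 35.4% of all genes did. Serpinb8, Serpinb9 and Cstb were higher in macrophages, and Serpinb1a, Serpinb10 and Cst3 were higher in monocytes. Serpinb2 had no adjusted p. With Cook's limit removed it was lower in macrophages (-4.48 ± 1.35, DESeq2 adjusted p = 0.00375), as it was with edgeR (adjusted p = 0.0442), whereas without Ly6Clo replicate 2 it did not pass (-1.49, DESeq2 adjusted p = 0.406). The median log2 fold change was 0.79 over the 7 genes with an adjusted p, against 0.08 over all genes tested. It rests on which genes enter: with Serpinb2 included, by removing Cook's limit, it was -0.03, and it was -0.07, 0.02 and -0.03 without eYFP- replicate 1, 2 or 3, where 6 genes had an adjusted p.

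Serpinb8 (ENSMUSG00000026315), an inhibitor of furin, had 2238, 1379.8 and 1689 normalized counts in eYFP+ macrophages, 1462, 1137 and 993 in eYFP- macrophages, 648, 583 and 712 in Ly6Chi and 543, 691 and 559 in Ly6Clo monocytes. The 6 macrophage libraries were all above the 6 monocyte libraries, with a log2 fold change of 1.23 ± 0.20 (DESeq2 adjusted p = 1.19e-08). Serpinb9 rose more, by 2.07 ± 0.27 on the log2 scale (DESeq2 adjusted p = 8.62e-13), from the monocyte counts above to 1173, 1021 and 1106 in eYFP+ and 686, 959 and 1059 in eYFP- macrophages.

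Cstb (ENSMUSG00000005054), or stefin B, is a cystatin of the cytosol and nucleus. It had 9718, 5917 and 5049 normalized counts in eYFP+ macrophages, 6608, 4394 and 5085 in eYFP- macrophages, 4371, 4749 and 4581 in Ly6Chi and 2543, 2643 and 2911 in Ly6Clo monocytes. The log2 fold change of 0.79 ± 0.22 had a DESeq2 adjusted p of 0.00118. The Ly6Clo group lay below all other libraries, while eYFP- macrophages and Ly6Chi monocytes overlapped (adjusted p = 0.649). Replicate 1 was the highest of the eYFP+ group for every gene described except Serpinb6a and Serpinb10, and this is the eYFP+ library that stood apart.

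Serpinb10 was the gene with the largest difference among the 10, at -9.90 ± 0.58 on the log2 scale (DESeq2 adjusted p = 8.40e-64). Against the 2 reads in eYFP+ macrophages, the reads in Ly6Chi and Ly6Clo monocytes gave ratios of 9027 (95% counting interval 2498 to 74546) and 5967 (1652 to 49282). Serpinb1a had a log2 fold change of -2.92 ± 0.30 (DESeq2 adjusted p = 1.56e-21), and its eYFP- macrophage libraries overlapped Ly6Clo monocytes (adjusted p = 0.649). Cst3 had -0.85 ± 0.14 (DESeq2 adjusted p = 1.00e-08), with libraries above all macrophage libraries in the Ly6Clo group only. Serping1 did not pass the test (1.34 ± 0.75, DESeq2 adjusted p = 0.158), and passed without Ly6Chi replicate 1 (3.59, adjusted p = 2.32e-12). It was also called with limma on log2(TPM + 1) and log2(TPM + 0.1), but not on log2(TPM + 1) without the filter, nor with edgeR (adjusted p = 0.226).

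Of the markers of other cells, all 7 erythroid markers were higher in macrophages than in monocytes, as were 3 of 6 megakaryocyte markers (Gp9, Itga2b and Pf4), and 8 of 12 neutrophil markers were lower. Of 12 markers of T and NK cells, 5 were higher (Cd3d, Cd8a, Klrb1c, Ncr1 and Trac) and 1 lower (Klrd1), while their sums overlapped, at 664 to 3926 normalized counts in macrophage and 887 to 4496 in monocyte libraries. Of the remaining lists, 2 of 8 basophil, mast cell and eosinophil markers and 1 of 6 B cell markers were higher, and stem cell and dendritic cell markers moved both ways. Over all genes, 20.3% were higher and 15% lower. The sums of the B cell markers did not overlap, at 9519 to 18142 normalized counts in macrophage and 709 to 3668 in monocyte libraries. The part of such cells in the differences of the inhibitors was not tested.

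Each macrophage group was also set against each monocyte group. From eYFP+ macrophages to Ly6Chi monocytes 4 of the 8 genes differed (24.5% of all genes did), with Serpinb8 and Serpinb9 higher and Serpinb1a and Serpinb10 lower in the macrophages. Against Ly6Clo monocytes 6 differed (28% of all genes), with Cstb added to the higher and Cst3 to the lower genes. For eYFP- macrophages 5 genes differed from Ly6Chi monocytes (27.4% of all genes), Serpinb8, Serpinb9 and Serping1 higher and Serpinb1a and Serpinb10 lower, and 5 from Ly6Clo monocytes (26.3% of all genes), Serpinb8, Serpinb9 and Cstb higher and Serpinb10 and Cst3 lower. Serping1 was called in 1 of these comparisons, eYFP- macrophages minus Ly6Chi monocytes (3.06 ± 1.06, DESeq2 adjusted p = 0.0173). That call was lost with edgeR (adjusted p = 0.0935), with the replicate block in edgeR (0.0521), in the DESeq2 fit on the libraries of the comparison alone (0.157) and without Ly6Chi replicate 2 or 3 (0.0673 and 0.0501). Without eYFP- replicate 1, 2 or 3 DESeq2 gave Serping1 no adjusted p. Serping1 gained a call for eYFP- macrophages minus Ly6Clo monocytes (DESeq2 adjusted p = 0.0800) in the fit on those libraries alone (6.51e-04) and with limma on log2(TPM + 1) (0.0253), and for eYFP+ macrophages minus Ly6Chi monocytes (0.895) without Ly6Chi replicate 1 (9.22e-08). Against Ly6Clo monocytes, eYFP- macrophages lost the call of Cstb without eYFP- replicate 1 (DESeq2 adjusted p = 0.0733) and that of Serpinb9 without eYFP- replicate 3 (0.0618). Against Ly6Chi monocytes they lost that of Serpinb8 without eYFP- replicate 1 (0.0858) or Ly6Chi replicate 2 (0.0740). With Cook's limit removed, Serpinb2 was lower in eYFP- macrophages than in Ly6Chi and Ly6Clo monocytes (DESeq2 adjusted p = 0.0205 and 0.00142). The DESeq2 replicate block called both differences, and edgeR called neither (adjusted p = 0.115 and 0.0532). Without Ly6Clo replicate 2, where Serpinb2 had 186 normalized counts, the difference from Ly6Clo monocytes was not called. Cstb was higher in eYFP+ macrophages than in Ly6Chi monocytes with limma on log2(TPM + 1) (adjusted p = 0.0277), but not with DESeq2 (0.159). For eYFP- macrophages minus Ly6Chi monocytes, leaving out 1 library at a time gave 3 to 5 calls, with 3 without eYFP- replicate 1 or without Ly6Chi replicate 2.

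Serpinb10 and Serpinb8 lie next to each other on chromosome 1 in the RefSeq annotation, with Serpinb2 on the other side of Serpinb10, and they differed in opposite directions between macrophages and monocytes. The 250 bases before the start of both genes are shown with those of Serpinb6a and Cst7, the genes picked for their patterns (RefSeq, build GRCm38.p6, read 5′ to 3′ on the gene's strand). The deposited counts were made on another build, GRCm39, so these positions apply to GRCm38.p6 only. Serpinb6a has 2 starts in the table, and the one farther upstream is shown. Capitals mark matches to the searched motif GGGCGG on either strand.
Serpinb10 (GRCm38.p6 chr1:107528753-107529002, plus strand): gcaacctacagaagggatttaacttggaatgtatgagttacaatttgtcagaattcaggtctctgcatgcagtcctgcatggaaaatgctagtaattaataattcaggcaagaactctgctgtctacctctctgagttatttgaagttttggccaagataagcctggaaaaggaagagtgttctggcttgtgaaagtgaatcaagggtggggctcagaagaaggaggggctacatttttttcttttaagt
Serpinb8 (GRCm38.p6 chr1:107589756-107590005, plus strand): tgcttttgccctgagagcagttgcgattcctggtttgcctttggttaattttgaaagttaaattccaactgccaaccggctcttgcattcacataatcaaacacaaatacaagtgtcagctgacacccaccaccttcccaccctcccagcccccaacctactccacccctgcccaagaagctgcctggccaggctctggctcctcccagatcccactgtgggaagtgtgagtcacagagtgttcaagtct
Serpinb6a (GRCm38.p6 chr13:34002795-34003044, minus strand): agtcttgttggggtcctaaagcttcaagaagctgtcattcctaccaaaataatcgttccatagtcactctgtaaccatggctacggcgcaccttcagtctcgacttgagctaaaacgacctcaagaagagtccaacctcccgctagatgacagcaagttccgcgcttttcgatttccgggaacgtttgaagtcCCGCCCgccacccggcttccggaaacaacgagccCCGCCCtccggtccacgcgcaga
Cst7 (GRCm38.p6 chr2:150570165-150570414, plus strand): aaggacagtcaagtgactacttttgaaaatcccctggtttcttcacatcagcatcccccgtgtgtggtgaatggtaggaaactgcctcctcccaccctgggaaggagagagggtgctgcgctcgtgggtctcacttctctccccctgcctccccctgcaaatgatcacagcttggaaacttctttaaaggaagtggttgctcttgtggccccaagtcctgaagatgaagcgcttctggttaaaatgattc

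Such windows were found for 9 starts of 7 of the 10 genes and searched on both strands for GAGGAA (the core bound by PU.1), TATAAA, TTGCNNAA (a C/EBP core), TGCTGAC (a MAF site) and GGGCGG (a GC box). The motifs were not found to overlap in these windows. GGGCGG occurred 2 times at the upstream start of Serpinb6a and 1 time in Cst3, and 32.7% of all 32851 promoter windows hold it. GAGGAA occurred 1 time in Cst3 (23.3% of all windows), and TATAAA and TTGCNNAA once at each of 2 overlapping starts of Serpinb2 (12.4% and 9.56% of all windows). TGCTGAC was in none of the 9 windows (3.81% of all). No match to the 5 motifs was found in the windows of Serpinb10, Serpinb8, Serpinb9 and Cst7.

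Beyond the 10 genes, the tables hold 56 other serpins, of which 17 could be tested for eYFP+ minus eYFP- macrophages. None was higher and 2 were lower, where 1.88% of all genes were lower: Serpine2 (-2.59 ± 0.60, DESeq2 adjusted p = 0.00203) and the collagen chaperone Serpinh1. With edgeR neither passed (adjusted p = 0.124 and 0.271). Serpine2, an inhibitor of thrombin and urokinase also called protease nexin 1, had 131, 142 and 51.8 normalized counts in eYFP+ and 1076, 276 and 603 in eYFP- macrophages, with the libraries of the eYFP- group in the same order as for Serping1. Between monocytes 1 of 17 was called (8.62% of all genes), Serpinb6b, lower in Ly6Chi cells (-5.59 ± 0.67, DESeq2 adjusted p = 1.73e-14), the direction that Serpinb6a had. For macrophages minus monocytes 7 of 18 were higher and none lower, where 20.3% of all genes were higher and 15% lower. Among the 7 were Serpina3f (3.76 ± 0.25), Serpina3g (3.48 ± 0.30) and Serpinb6b (3.68 ± 0.40). Serpina3g had the highest counts of these 3, with 4113 ± 1107 normalized counts in eYFP+ macrophages and 272 ± 77.4 in Ly6Chi monocytes. Of 11 other cystatins 1 could be tested between the monocytes, Stfa1, which was higher in Ly6Chi than in Ly6Clo cells at a mean of 16.4 normalized counts against 0.

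The proteases that these inhibitors act on were counted in 2 lists. Of 12 serine proteases, 2 were lower in eYFP+ than in eYFP- macrophages and none higher, where 1.88% of all genes were lower: Prtn3, proteinase 3 (-3.84 ± 0.51, DESeq2 adjusted p = 5.87e-11), and Ctsg, cathepsin G (-3.81 ± 1.07, adjusted p = 0.0237). With edgeR Prtn3 passed and Ctsg did not (adjusted p = 0.0104 and 0.334). Both are also on the neutrophil marker list. Elane, neutrophil elastase, had 0, 79.1 and 62.2 normalized counts in eYFP+ and 236, 1599 and 2081 in eYFP- macrophages, which did not pass the test (-4.79 ± 1.70, DESeq2 adjusted p = 0.149). These 3 proteases were higher in Ly6Chi than in Ly6Clo monocytes, by 5.47 ± 0.51 (Prtn3), 8.71 ± 1.70 (Elane) and 3.93 ± 1.07 (Ctsg) on the log2 scale, in the direction of their inhibitor Serpinb1a and against that of the cathepsin G inhibitor Serpinb6a. For macrophages minus monocytes, 2 of the 12 serine proteases were called, against 35.4% of all genes: 1 was higher, the complement protease C1ra (3.91 ± 0.51), and 1 lower, Furin (-0.87 ± 0.35, DESeq2 adjusted p = 0.0401), whose inhibitor Serpinb8 was higher in macrophages.

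Of 11 cysteine proteases, 8 were higher and 1 lower in macrophages than in monocytes, against 20.3% and 15% of all genes. Ctsf (4.84 ± 0.27), Ctsb (2.46 ± 0.23) and Lgmn (2.79 ± 0.27) led the higher ones by adjusted p, and Ctsk, the collagen-degrading cathepsin of osteoclasts, was the lower one (-2.81 ± 0.36). In Ly6Clo monocytes Ctsk had 2379, 2291 and 4330 normalized counts against 7.29 to 19.1 in Ly6Chi monocytes (-7.73 ± 0.52, DESeq2 adjusted p = 8.15e-47). Ly6Clo monocytes were also the group with the most Cst3. Between monocytes Lgmn was lower in Ly6Chi cells as well (-1.73 ± 0.38), while Ctsc, the cathepsin that Cst7 inhibits, was higher (1.22 ± 0.31, DESeq2 adjusted p = 0.00202). Between the macrophages 1 of the 11 cysteine proteases was called, Ctsk, higher in eYFP+ cells, where 0.153% of all genes were higher. Ctsk had 60.2 ± 25.4 normalized counts in eYFP+ and 14.2 ± 5.07 in eYFP- cells, and the call was lost with edgeR (adjusted p = 0.112). Ctsc had 141959 ± 46631 and 103565 ± 21598 normalized counts there and did not pass the test (0.45 ± 0.31, DESeq2 adjusted p = 0.834).

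**Figure D5:**
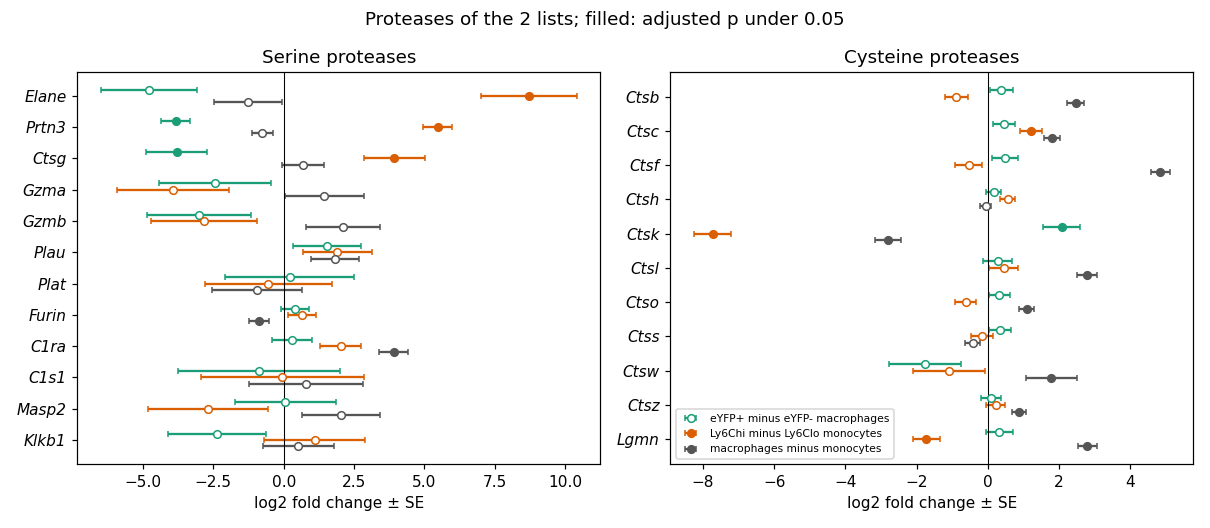
Log2 fold changes ± SE of 12 serine and 11 cysteine proteases in the 3 comparisons, with filled points for an adjusted p under 0.05. The serine proteases Elane, Prtn3 and Ctsg are higher in Ly6Chi monocytes, and 8 of 11 cysteine proteases are higher in macrophages.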

How the data were processed

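RNA of sorted bone marrow cells was sequenced as polyadenylated, amplified cDNA in 12 libraries, 3 for each of 4 groups. According to the methods, reads were trimmed and cleaned by the authors, aligned with segemehl to GRCm39 with the Ensembl annotation, and counted with featureCounts as unambiguous read pairs in exons. The deposited counts are whole read pairs per gene, so overlapping genes and near-identical copies lose reads. The cDNA kit as described marks no strand, and the strand setting of the counting is not stated. The authors also deposited TPM values, which are per length and used here for levels between genes, and variance-stabilised values on a scale close to log2, used for likeness of pattern and for comparing libraries. Intervals from counts cover counting error only, since reads were not told apart by molecular identifiers.

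Counts were tested with DESeq2 1.42.0 (R 4.3.3), the tool of the study, in 1 fit of all libraries with group as the factor, median-of-ratios size factors, and Benjamini-Hochberg adjusted p under 0.05 over all genes tested. Symbols were matched to 52029 of 56953 identifiers, and 14020 genes had no count. The members and gene lists were chosen with earlier results of these data known. Other genes were named by a rule: up to 3 higher and 3 lower per list and comparison, by adjusted p, with a mean of at least 50 normalized counts. Serpinh1, Stfa1, the uncalled Elane, the means of Ctsc, Ctsk between the macrophages and the values of Serpine2 in monocytes were added after their values were seen. Genes like Serpinb6a and Cst7 needed the same mean.

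Alternatives were edgeR 4.0.16, TMM scaling, the replicate block, keeping genes with 10 counts in 3 libraries, switching off independent filtering or Cook's limit, fits on the libraries of a contrast, at least 2-fold, limma 3.58.1 on log2(TPM + 1) or log2(TPM + 0.1), and leaving out each library. In simulated data for eYFP+ minus eYFP- macrophages, DESeq2 found more of the changed genes than edgeR but also called many more unchanged genes, a larger share of its calls than the threshold of 0.05 allows, so calls that DESeq2 alone makes there are less certain. Replicate numbers are in the titles, but no shared mouse is stated. Deviations of same-numbered macrophage libraries correlated at 0.456, 0.332 and 0.152 over the 2000 genes of highest mean, and at 0.301, 0.165 and 0.0617 over the 2000 most variable genes. For monocytes they were 0.307, 0.0314 and -0.0111 over the former. No 2 libraries of a group agreed within sampling noise.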

Additional observations from a re-analysis of the deposited data

How the results depend on the processing

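The count of tested members called for eYFP+ minus eYFP- macrophages fell from 2 to 1 with limma on log2(TPM + 1), with its filter or without, where Serpinb10 was lost (log2 fold change -0.61, limma adjusted p = 0.441 and 0.599): the added pseudocount of 1 exceeds its level in both groups. Leaving out 1 library at a time gave 2 calls throughout for this comparison, 2 to 4 for Ly6Chi minus Ly6Clo monocytes, 6 to 7 for macrophages minus monocytes, 4 to 5 for eYFP+ macrophages minus Ly6Chi monocytes, 6 throughout against Ly6Clo, and for eYFP- macrophages 3 to 5 against Ly6Chi and 4 to 6 against Ly6Clo monocytes. With the replicate block, DESeq2 called 2, 3 and 8 of the 8 members in the first 3 comparisons, the last with Serpinb2 and Serping1 added (adjusted p = 0.0028 and 0.0470). The replicate block in edgeR called 2, 2 and 6, without Serpinb9 between monocytes (adjusted p = 0.0897) and without Serpinb2 and Serping1 (0.0633 and 0.130). The members' median log2 fold change changed sign with the genes and libraries that enter, from -0.07 to 0.89 for macrophages minus monocytes and from -0.41 to 0.49 between monocytes. Between the macrophages it stayed between 0.03 and 0.26. Asking for at least 2-fold left 4 calls for macrophages minus monocytes, without Cst3 and Cstb. For eYFP- macrophages it left 4 against Ly6Chi monocytes, without Serpinb8, and 4 against Ly6Clo monocytes, without Cstb.

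Over all genes, eYFP+ minus eYFP- macrophages had 439 calls, against 64 with edgeR, 1155 with the DESeq2 replicate block, 24 with the edgeR replicate block, 686 in the fit on macrophages alone, 175 with limma on log2(TPM + 0.1), and 220 with limma on log2(TPM + 1) without the filter (357 with it). Ly6Chi minus Ly6Clo monocytes had 1860, against 829 (edgeR), 537 (edgeR block), 1191 (monocytes alone), 969 to 1219 with limma, and 1219 and 1205 without Ly6Chi replicate 1 or 2. The highest counts were 2239 with the DESeq2 block and 2290 without Ly6Clo replicate 1. The causes were not tested.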
